A study of Mus musculus with 8 samples.

Results

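The regions described here are promoter peaks of mouse retina that were listed in both genotypes and were at least 2 times as long in the Spata7 knockout (KO) as in the wild type (WT). They were selected on peak length itself: a promoter peak of the WT list at 7 months had to overlap exactly 1 peak of the KO list at 6 months, which overlapped no other WT peak and was at least 2 times as long. Of 12393 promoter peaks in the WT list, 11570 were matched 1 to 1 with a KO peak, and 920 of these (7.95%) were widened by this rule. They were annotated as promoters of 901 genes. The mirror case, a WT peak at least 2 times as long as its KO peak, was met by 16 shared promoter peaks (0.138%).

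The study followed photoreceptor degeneration in male Spata7 mutant mice against male C57BL6/J mice, in retina. Spata7 encodes a protein of the photoreceptor connecting cilium. Accessible chromatin comes from 10x Chromium single-cell ATAC libraries, 1 of WT retina at 7 months and 1 of KO retina at 6 months. RNA comes from single cells at 1, 3 and 6 months, with 1 library per genotype and age. The labels name no further allele, transgene or agent in either genotype, and do not say how many animals were used. Each ATAC list pools all retinal cells, gives no height or score, and has unknown depth, so that more cells of a type, more accessibility per cell, a difference in age and a difference in depth cannot be told apart. The ages differ, and no list has a replicate, so peak lengths are given with no test.

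ATAC sequencing marks stretches of DNA that a transposase can reach. Promoters of broadly active genes are usually open in nearly every cell, often over a CpG island and the first nucleosomes, whereas the promoter of a gene used by a minor cell type is open mainly in those cells. Rods are by far the most numerous cells of the mouse retina, and Müller glia, its principal glial cells, span its whole thickness.

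The promoters of Nupr1, Lrtm1, Cp, Rxrg, Pde6h and S100a4 are shown because an edge of the WT peak lies inside the promoter window, so that the widening can be read in the letters. Each sequence is the part of the RefSeq promoter window (build GRCm38.p6, 250 bases before to 49 after the start site) that lies inside the KO peak, 5′ to 3′ on the strand of the gene. Capitals mark the bases that also lay inside the WT peak, and lower case marks bases covered in the KO list only.
Nupr1: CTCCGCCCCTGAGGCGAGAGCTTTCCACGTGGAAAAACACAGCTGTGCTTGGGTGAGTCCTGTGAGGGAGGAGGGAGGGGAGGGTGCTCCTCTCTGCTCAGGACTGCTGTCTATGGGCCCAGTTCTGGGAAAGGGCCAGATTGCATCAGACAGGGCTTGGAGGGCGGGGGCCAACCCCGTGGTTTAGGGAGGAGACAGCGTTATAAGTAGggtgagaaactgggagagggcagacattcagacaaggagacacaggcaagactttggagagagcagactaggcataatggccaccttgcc
Lrtm1: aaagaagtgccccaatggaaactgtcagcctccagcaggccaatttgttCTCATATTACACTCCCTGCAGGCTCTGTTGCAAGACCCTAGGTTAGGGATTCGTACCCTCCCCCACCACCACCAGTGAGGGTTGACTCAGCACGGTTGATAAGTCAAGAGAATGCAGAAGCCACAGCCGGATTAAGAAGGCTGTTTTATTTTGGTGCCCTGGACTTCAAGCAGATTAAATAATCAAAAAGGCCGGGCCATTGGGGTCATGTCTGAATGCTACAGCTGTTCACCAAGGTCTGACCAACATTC
Cp: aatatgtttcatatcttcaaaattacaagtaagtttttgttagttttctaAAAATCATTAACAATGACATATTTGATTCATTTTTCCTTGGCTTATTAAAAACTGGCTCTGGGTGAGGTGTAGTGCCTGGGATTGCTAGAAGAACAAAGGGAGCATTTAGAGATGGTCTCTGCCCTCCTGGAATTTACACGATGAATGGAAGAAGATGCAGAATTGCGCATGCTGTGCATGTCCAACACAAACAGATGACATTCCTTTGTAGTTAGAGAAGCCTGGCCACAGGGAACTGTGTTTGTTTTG
Rxrg: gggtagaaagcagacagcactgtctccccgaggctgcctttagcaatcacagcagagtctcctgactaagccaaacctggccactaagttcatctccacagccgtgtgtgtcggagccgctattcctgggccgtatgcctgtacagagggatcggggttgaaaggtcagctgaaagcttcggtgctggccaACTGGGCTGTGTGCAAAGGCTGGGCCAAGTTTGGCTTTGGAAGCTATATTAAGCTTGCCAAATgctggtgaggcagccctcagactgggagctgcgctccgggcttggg
Pde6h: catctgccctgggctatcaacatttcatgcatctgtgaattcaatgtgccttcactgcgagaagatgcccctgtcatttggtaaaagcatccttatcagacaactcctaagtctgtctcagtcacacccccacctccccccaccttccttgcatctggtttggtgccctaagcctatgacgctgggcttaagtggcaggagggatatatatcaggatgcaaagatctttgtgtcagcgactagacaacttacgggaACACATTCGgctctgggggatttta
S100a4: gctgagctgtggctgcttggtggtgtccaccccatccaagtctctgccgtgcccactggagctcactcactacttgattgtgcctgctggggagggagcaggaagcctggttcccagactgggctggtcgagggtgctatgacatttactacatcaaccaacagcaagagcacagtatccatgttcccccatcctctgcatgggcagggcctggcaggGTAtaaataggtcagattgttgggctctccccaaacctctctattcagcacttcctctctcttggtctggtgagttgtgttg
The Nupr1 stretch is chr7:126625421-126625720 on the minus strand, and the other genes lie on the plus strand: Lrtm1 at chr14:29017958-29018257, Cp at chr3:19956804-19957103, Rxrg at chr1:167618015-167618314, Pde6h at chr6:136954292-136954572 and S100a4 at chr3:90603520-90603819. Of the bases shown, 210 of 300 lay in the WT peak at Nupr1, 251 at Lrtm1 and 250 at Cp, against 63 at Rxrg, 9 at Pde6h and 3 at S100a4. The bases gained at Nupr1 include the start site itself, which lay 41 bases outside the WT peak.

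The widened peaks were short in the WT list. Their WT length had a median of 433 bases (quartiles 275.8 and 604, range 1 to 2676), and the KO peaks over them had a median of 1310 bases (quartiles 897 and 1828). The other 10650 shared promoter peaks had medians of 1518 bases in WT and 1631 in KO. The median KO-to-WT ratio was 2.915 in the widened peaks and 1.053 in the others. These lengths chose the peaks and are a description. The share of shared promoter peaks that were widened was 94.4% of 213 with a WT length under 250 bases, 46.3% of 801 between 250 and 500, 17.1% of 1710 between 500 and 1000, and 0.849% of 6009 between 1000 and 2000. A WT peak of 2000 bases or more was widened in 5 of 2837 cases (0.176%). Outside promoters, 17.5% of 38718 peaks shared 1 to 1 passed the same length rule and 2.52% passed its mirror.

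**Figure D1:**
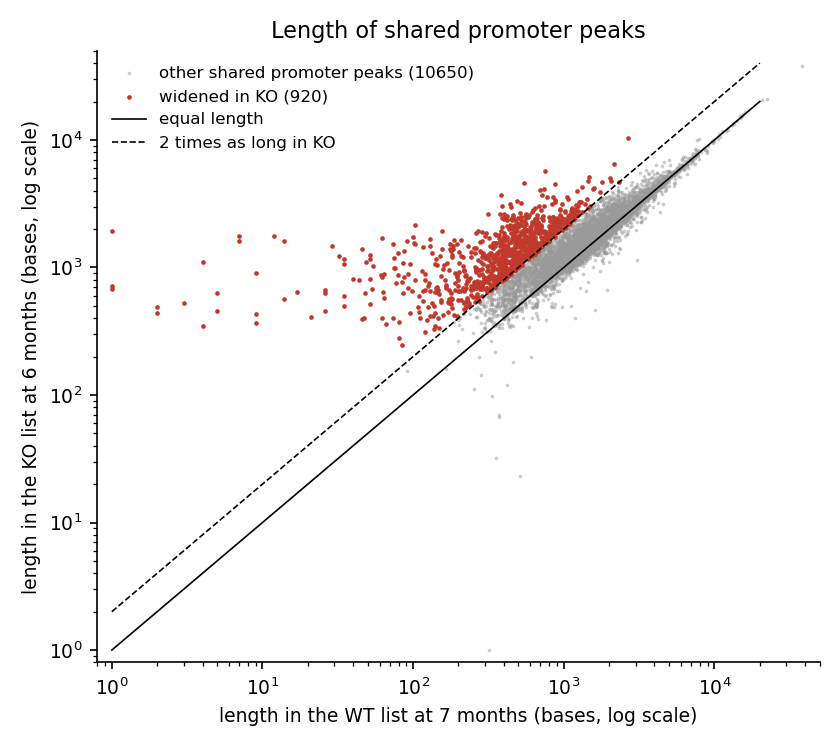
Length of each of the 11570 shared promoter peaks in the WT list at 7 months (x axis, bases, log scale) against its length in the KO list at 6 months (y axis, bases, log scale). The 920 widened peaks (red) lie on or above the dashed line at 2 times, mostly at WT lengths under 500 bases, and the 10650 others (grey) follow the line of equal length.

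At the threshold, Slc2a12 (642 bases in WT, 1284 in KO), Gng12 (803 and 1606), Tmem132a (873 and 1747), Ttc9b (510 and 1021) and Ankrd55 (406 and 813) were just inside. Cpne7 (478 and 955), Tpd52l1 (449 and 897), Zdhhc22 (930 and 1857), Tfe3 (1172 and 2340) and Igdcc4 (984 and 1964) were just outside.

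Nearly all widened peaks reached further at both ends. Since the rule chose peaks by their growth, and the others by its absence, the values on edges and start sites are a description, and the comparison with the others follows in part from the rule. Of the 920, 911 (99%) reached further than the WT peak on both sides, against 53.2% of the other shared promoter peaks and 78.1% of the 442 others with a WT length under 500 bases. A RefSeq start site could be assigned to 627 of them. The median gain was 238 bases upstream of the start and 538 downstream, and the gain was larger downstream in 459 peaks (73.2%). Among others under 500 bases, the gain was larger downstream in 60.5%. The median peak ran from 244 bases before to 195 after the start in WT and from 497 before to 751 after it in KO.

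The start site lay inside the WT peak in 460 of 627 cases (73.4%) and inside the KO peak in 603 (96.2%). Of the 167 WT peaks that missed it, 102 lay upstream and 65 downstream, and the KO peak covered the start in 143 of them. In the other shared promoter peaks under 500 bases, the start was covered in 69.1% of WT and 74.2% of KO peaks. Among all others it was covered in 97.2% and 97.9%.

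**Figure D2:**
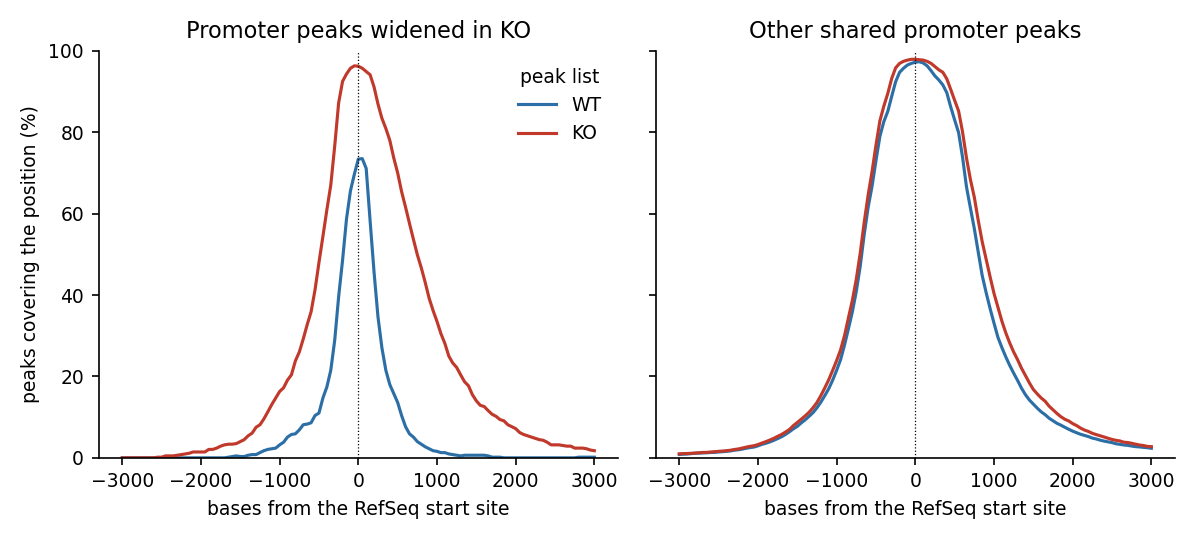
Share of peaks (y axis, percent) that cover each position relative to the RefSeq start site (x axis, bases, in the direction of the gene), for the 627 widened peaks with a start site (left) and 8121 other shared promoter peaks (right), WT list in blue and KO list in red. The KO curve of the widened peaks is higher and extends further downstream, and the curves of the other peaks nearly overlap.

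By ratio, the 10 largest had WT peaks of 1 to 12 bases, where almost any KO peak gives a large ratio. At Wnt5b, a secreted Wnt ligand, a single WT base at chr6:119544672 lay within a KO peak of 1934 bases (chr6:119543006-119544939). Zfp697 and Aqp3, an aquaglyceroporin, had 1 WT base each against 721 and 676 in KO. Cacnb2, the beta subunit of the calcium channel at photoreceptor ribbon synapses, went from 4 to 1102 bases. Kcnma1, the pore of the BK potassium channel, went from 7 to 1605. Pgf, a growth factor of the VEGF family, went from 2 to 494, the potassium channel gene Kcnh6 from 2 to 436, the calcium-binding protein gene S100a4 from 3 to 527, and Cd24a from 12 to 1768. In all, 36 widened peaks were under 50 bases in WT, and 848 remained when WT peaks under 100 bases were left out.

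By bases gained, the 10 largest grew by 3295 to 7595 bases. The promoter of Glul (annotated also to Teddm2), which encodes the glutamine synthetase of Müller glia, went from 2676 bases (chr1:153898933-153901608) to 10271 (chr1:153898348-153908618), the largest gain of all at 7595 bases. Its KO peak ended 8689 bases downstream of the start, past a WT end at 1679. Inhbb, an activin subunit, gained 4934 bases, Fam214a 4272, and the protocadherin gene Pcdh17 4081. Cebpd, a C/EBP transcription factor, gained 3674 (1471 to 5145), the receptor gene Gpr85 gained 3652 and Frmd3 gained 3407. Gpr37, a Müller glial receptor, gained 3389 (695 to 4084). Gpm6a, a neuronal and glial membrane glycoprotein, gained 3327, and Adgrb3, an adhesion receptor of synapses, gained 3295.

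Markers of Müller glia, inner retinal neurons and cones were among the widened promoters more often than all genes. Rod markers were among them about as often, and cilium, ribosomal and glycolysis genes not at all. Over all 12135 genes with a shared promoter peak the share was 7.42%. Among Müller glial markers, 6 of 12 were widened: Glul, the glutamate transporter gene Slc1a3 (401 to 1441 bases), the intermediate filament gene Vim (1211 to 3078), the transcription factor genes Sox9 (551 to 2268) and Sox2 (774 to 3551), and Gpr37. Among bipolar markers, 3 of 7 were widened, the LIM homeobox gene Isl1 (519 to 1520), Lrtm1 (283 to 1110) and Car8 (489 to 1601). Among amacrine markers, 2 of 6 were widened, Gad1, which makes GABA (487 to 3298), and the syntaxin gene Stx1a (476 to 962). Among ganglion cell markers, 3 of 6 were widened, Rbpms (577 to 1554), Thy1 (481 to 1226) and Pou4f1 (271 to 1150). Horizontal cell markers gave 2 of 6, Onecut1 (476 to 1287) and Onecut2 (473 to 2339).

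Markers of the rarer cells followed, with few genes each. The endothelial markers gave 2 of 3, the VEGF receptor gene Flt1 (605 to 2062) and the adhesion gene Esam (208 to 1652). The pericyte markers gave 1 of 3, Myl9 (338 to 804), and the astrocyte markers 2 of 2, Igf2 (195 to 416) and Aldh1l1 (461 to 979). Microglial and pigment epithelial markers gave 0 of 2 each.

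Among photoreceptor genes, cone markers were widened more often than all genes (30.8% against 7.42%), and rod and cilium genes were not. Of 13 cone markers, 4 were widened: Pde6h, the inhibitory subunit of the cone phosphodiesterase (9 to 370 bases), the cone channel subunit gene Cnga3 (987 to 2246), the potassium channel accessory gene Kcne2 (389 to 1076) and the nuclear receptor gene Rxrg (63 to 641). Of 15 rod markers, only Esrrb, a nuclear receptor of rods, was widened (139 to 347), a share near that of all genes. Phototransduction gave 2 of 21 (Pde6h and Cnga3), photoreceptor transcription factors 2 of 11 (Esrrb and Rxrg) and the photoreceptor synapse 1 of 16 (Cacnb2). The connecting cilium and outer segment gave 0 of 33.

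Among the remaining lists, reactive gliosis gave 3 of 9, Vim, Cebpd and Cp, which encodes ceruloplasmin (272 to 548). Developmental and homeobox genes gave 6 of 24, all of them named above as cell type markers. Stress genes gave 2 of 23, Nupr1, a stress-induced transcriptional regulator (313 to 665), and the small heat shock protein gene Hspb1 (604 to 1377). Chromatin regulators gave 2 of 56, the DNA methyltransferase gene Dnmt3a (91 to 1605) and Ezh2 (502 to 1547), which encodes the catalytic subunit of Polycomb complex 2. The immediate early genes gave 0 of 16, the immune genes 0 of 13, the glycolysis genes 0 of 26 and the ribosomal protein genes 0 of 35. Lists this short are counts, with no test.

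**Figure D3:**
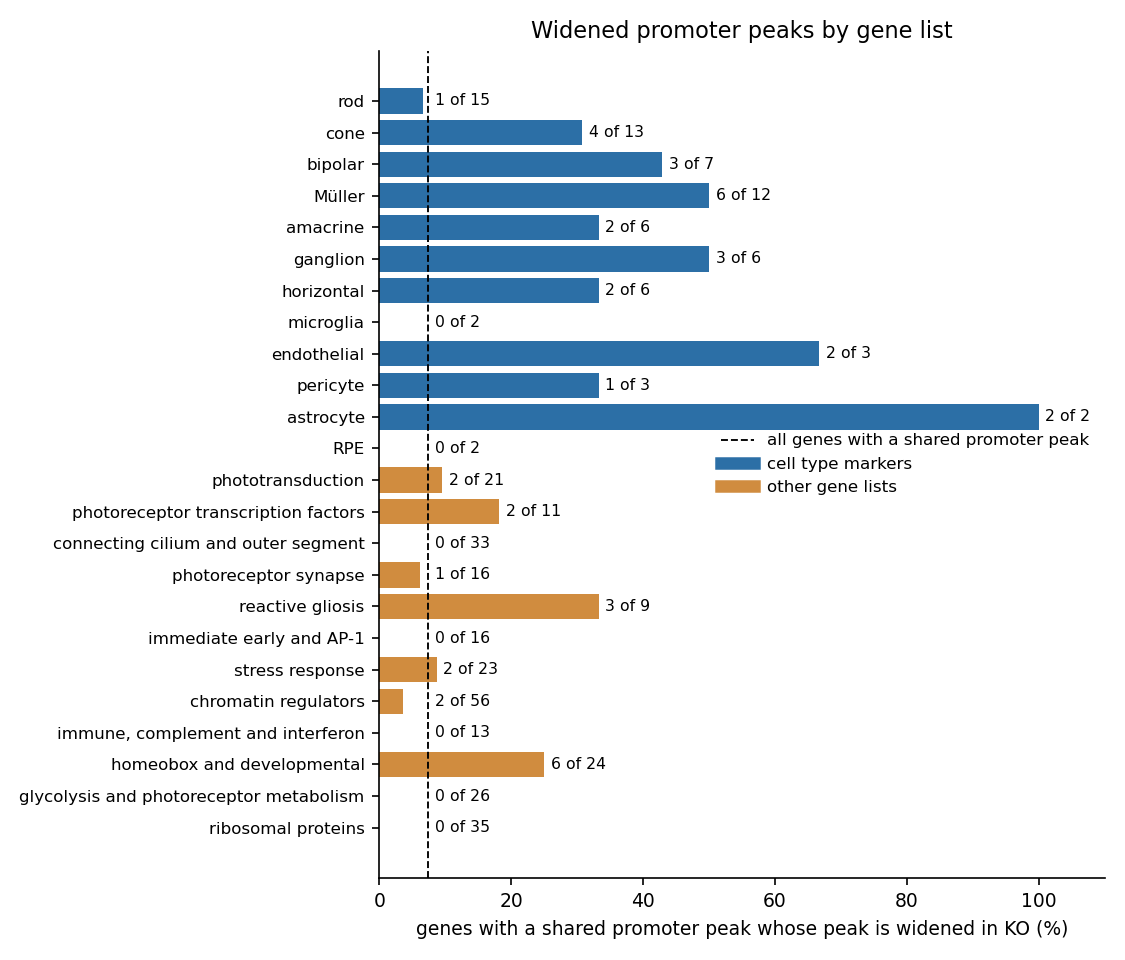
Share of genes with a shared promoter peak whose peak was widened in KO (x axis, percent) for 12 cell type marker lists (blue) and 12 other lists (orange), with the counts beside each bar. The dashed line at 7.42% is the share over all 12135 such genes. Müller markers reached 6 of 12, cone markers 4 of 13 and rod markers 1 of 15.

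**Figure D4:**
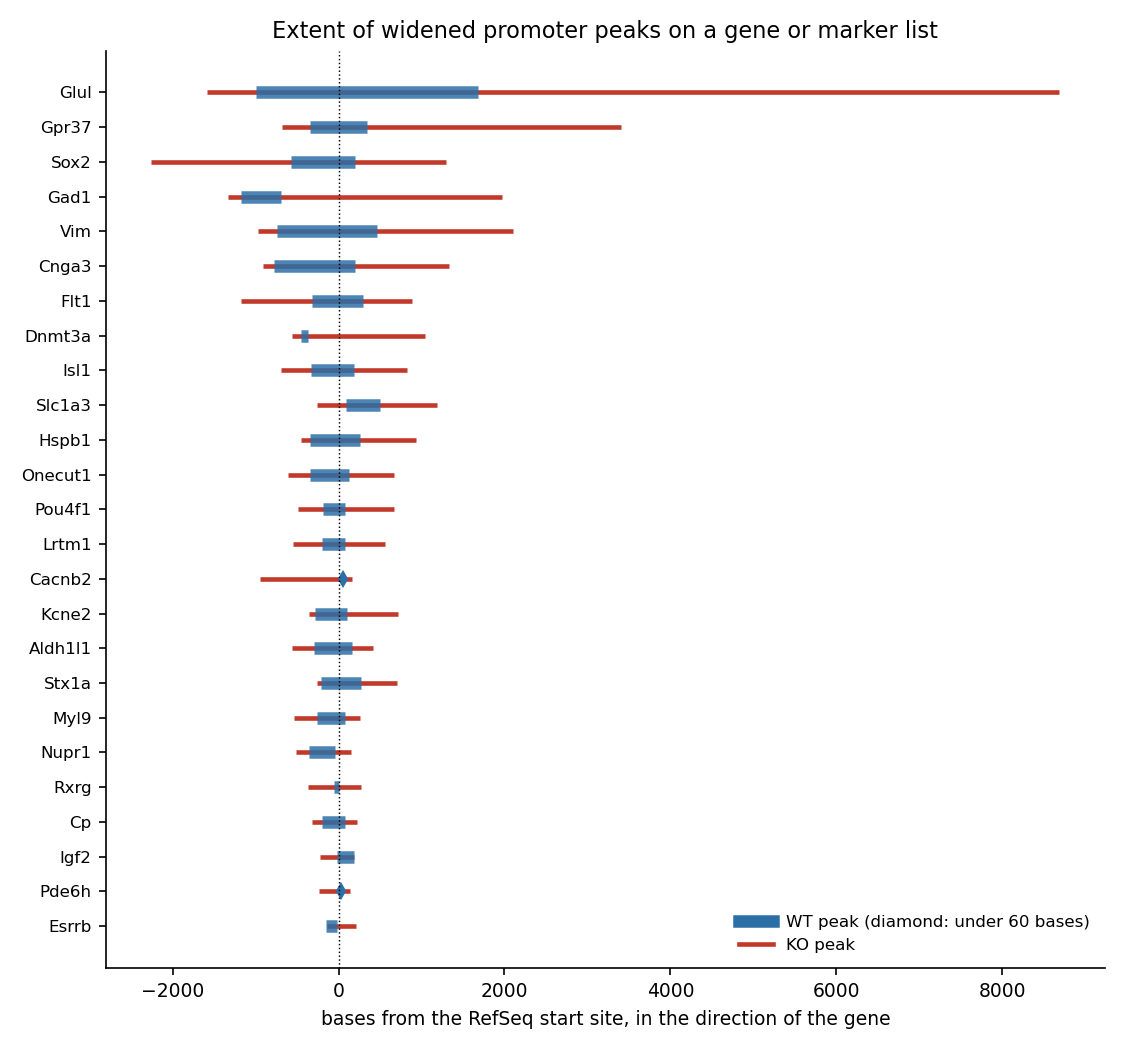
Extent of the WT peak (thick blue, diamond where under 60 bases) and of the KO peak (thin red) relative to the RefSeq start site (x axis, bases, in the direction of the gene) for widened promoters on a list that have a start site. Glul extends furthest, to 8689 bases downstream in KO, and at Gad1 the WT peak lies upstream of the start while the KO peak covers it.

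The genes of widened promoters also had more peaks elsewhere in the KO list. Other peaks annotated to the same genes numbered 3341 in the WT list and 8227 in the KO list, a ratio of 2.46, against 41627 and 61174 (1.47) for the other shared promoters and 1582 and 2390 (1.51) for the others under 500 bases. More such peaks in KO were found for 738 of the 920 (80.2%), against 54.1% of the others. Isl1 went from 1 to 16 other peaks, Lrtm1 from 1 to 13, Sox2 from 5 to 17 and Wnt5b from 8 to 20, whereas Esrrb went from 40 to 34. The length rule did not use these peaks, but the KO list is longer as a whole (91130 peaks against 56797), and both counts come from the same lists.

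The promoter letters of the widened peaks were poorer in CpG and in ETS and NRF1 cores than those of all other shared promoters, as were those of other short WT peaks. RefSeq windows could be read for 627 members. The median ratio of observed to expected CpG, a measure of CpG island character, was 0.635, against 0.787 in all others and 0.463 in the others under 500 bases. The ETS core CGGAAG, searched on both strands, was in 13.1% of windows, against 32.9% and 9.97%. The NRF1 core TGCGCA was in 6.70%, against 15.4% and 5.50%. The AP-1 site TGANTCA was in 7.02%, against 3.95% and 6.19%, and occurs in the Lrtm1 window from 119 to 113 bases and in the Cp window from 177 to 171 bases before the start. The CRX or OTX core TAATCC was in 6.22%, against 5.85% and 6.19%, and the GC box GGGCGG in 61.6%, against 68.9% and 51.5%. The CCAAT box was in 31.7%, against 39.1% and 32.0%.

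For RNA, 865 of the 901 genes matched a gene ID. The wells came from ICELL8 nanowell chips, 1 library per genotype and age, with 216 to 876 wells and 12356586 to 182310499 reads per library. Spata7 itself was at 26.1, 20.2 and 32.2 CPM (reads of a gene scaled to a common library total) in the WT libraries at 1, 3 and 6 months and at 4.07, 1.38 and 3.59 CPM in the KO libraries. The library labelled WT 1 month held 110 CPM of Xist reads and 0 reads of 4 Y-linked genes, which goes against its label of male. The other 5 libraries held Y-linked reads at 149 to 256 CPM. Wells were gated to the cell type whose markers scored highest. Some of these markers, such as Glul, Vim, Isl1, Gad1 and Pde6h, are genes of widened promoters. Their levels by gate are therefore not independent of the gating. At 6 months the gating gave 181 WT and 256 KO rod wells, 29 and 64 cone, 56 and 111 bipolar, 16 and 84 Müller, and 25 and 87 amacrine wells. Wells of the ganglion gate (12 and 112) and the horizontal gate (17 and 58) are not described, because no cluster of wells was classed as either. The leading score was within 0.2 of the second in 52.7% and 36.2% of their KO wells, against 15.6% to 39.1% in the KO gates described, with the highest share in the amacrine gate.

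The genes of widened promoters were seldom rod genes. In WT at 6 months, 519 of them had at least 50 reads over the 5 gates, and the highest level was in the amacrine gate for 157 (30.3%), the bipolar gate for 147 (28.3%), the Müller gate for 141 (27.2%), the cone gate for 44 (8.48%) and the rod gate for 30 (5.78%). Of 8616 genes of other shared promoters, 16.7% were highest in the rod gate and 18.1% in the cone gate. In KO the rod gate led for 41 of 684 (5.99%), against 14.5% of the others.

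In the rod gate, RNA of the genes of widened promoters was higher in KO at 6 months more often than RNA of other genes. With 1 library per genotype there is no test, so a 2-fold difference on the log2(CPM + 1) scale is counted among genes with at least 50 reads over both libraries. All 12643 genes tested in rods gave 27.9% higher and 12.6% lower in KO. Of 541 genes of widened promoters, 287 (53.0%) were higher and 59 (10.9%) lower, with a median log2 ratio of 1.13 against 0.21 over all genes. A further 324 matched genes had fewer reads and are not in these counts. The KO library had 35339121 rod reads against 10005307 in WT, so a gene that is high in KO passes the read minimum more easily. Among genes of other promoters under 500 bases in WT, the set most like these in peak length, 41.9% of 160 were higher and 13.1% lower, with a median of 0.67. With a minimum of 5 on the mean CPM of both libraries instead, which does not weight the deeper library, 43.7% of 325 genes were higher in KO, against 17.9% of all genes and 20.4% of 93 genes of other promoters under 500 bases in WT. Their medians were 0.68, 0.06 and 0.11. Summed over all 865 genes with no minimum, their share of rod reads was 1.13% in WT and 1.55% in KO. The same share was 2.57% and 2.75% in cones, and lower in KO in bipolar (3.46% and 2.94%), Müller (4.23% and 3.79%) and amacrine cells (3.4% and 3.02%).

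The rod gate showed the same direction at the other ages, as values side by side. The median log2 ratio was 2.69 at 1 month (384 genes; all genes 0.37) and 1.94 at 3 months (300 genes; all genes 0.30). Genes of other promoters under 500 bases had medians of 0.84 and 1.03. RNA of other cell types also moved with genotype in the rod gate. At 6 months the 16 Müller markers summed to 3360 CPM in WT and 7130 in KO, with 0 of them at 0 reads in either. Of these 16 genes, 6 are themselves genes of widened promoters. The 17 bipolar markers summed to 753 and 1130 CPM with 1 and 0 at 0 reads, and the 20 rod markers to 138000 and 115000 with 0 at 0 reads in either. WT and KO wells were also spread differently over the clusters classed as rod, which include wells of other gates. At 1 month 1 of them held 403 WT and 68 KO wells and the other 6 and 66, fewer KO wells than the 238 of the rod gate. At 3 months they held 117 and 15, and 8 and 77, and at 6 months 95 and 7, and 109 and 408. The leading score at 6 months was within 0.2 of the second in 17.1% of WT and 31.2% of KO rod wells. The part of other cells' RNA and of these clusters in the rod values was not tested.

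By medians, the difference from all genes in cones was of like size to that in rods at 50 reads and at 5 CPM. It was smaller at 20 CPM. By the share higher in KO under these minimums, the difference was smaller in cones. In the other 3 gates the difference was smaller or absent. In cones, 56.3% of 359 genes were higher and 19.8% lower, against 37.3% and 18.8% of all 9940. Genes of other promoters under 500 bases gave 48.1% and 22.1% of 104. With the minimum of 5 on mean CPM, the medians were 0.75 for these genes, 0.14 for all genes and 0.28 for genes of other promoters under 500 bases. Under it, 47.5% of these genes were higher and 26.2% lower in cones, against 31.2% and 22.3% of all genes. In rods the shares were 43.7% and 9.85%, against 17.9% and 12.8%. With a minimum of 20, the cone medians were 0.083 for these genes and -0.066 for all genes, against 0.589 and 0.004 in rods. Müller markers summed to 5730 CPM in WT and 6030 in KO cones, bipolar markers to 791 and 1880, and cone markers to 49600 and 40600, and their part in the cone values was not tested. In bipolar cells, 40.0% of 530 were higher and 20.9% lower, against 29.8% and 18.4% of 11759, and the median was 0.38, or -0.09 with the minimum on mean CPM. In Müller cells, 48.9% of 493 were higher and 17.4% lower, against 46.9% and 17.7% of 10951. In amacrine cells, 42% of 510 were higher and 22.2% lower, against 39.7% and 19.6% of 11100. Genes of other promoters under 500 bases were higher more often than these genes in all 3 gates, in 44.7% of 141 in bipolar, 53.6% of 138 in Müller and 54% of 137 in amacrine cells. Shares within a few points of those over all genes are not read as results about these genes.

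**Figure D5:**
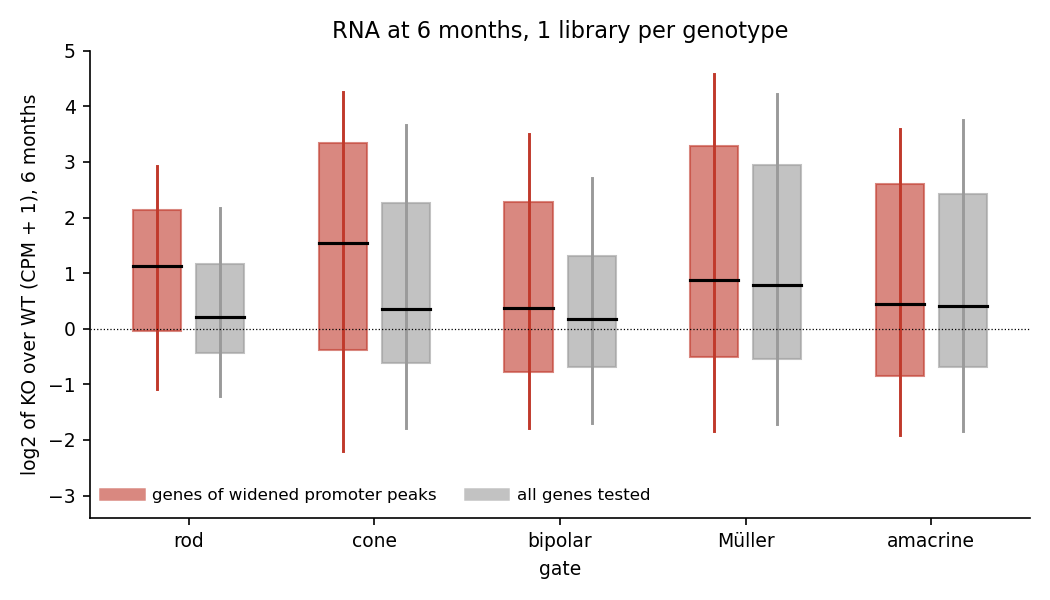
Log2 ratio of KO over WT (CPM + 1) at 6 months (y axis) in 5 gates (x axis), for genes of widened promoters (red) and all genes tested (grey): line at the median, box over the quartiles, whiskers from the 10th to the 90th percentile, 1 library per genotype. The medians differ most in the cone gate (1.54 and 0.35) and the rod gate (1.13 and 0.21), and lie close in the Müller gate (0.88 and 0.78).

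The Müller glial genes differed by gate. In the Müller gate at 6 months, the 16 Müller markers as a whole summed to 68400 CPM in WT and 47900 in KO, with 0 at 0 reads, while cone markers summed to 2080 and 3330 and bipolar markers to 232 and 1100. Their part in the values of single genes was not tested. Glul in the Müller gate was at 7280 CPM (95% Poisson interval 7150 to 7410, counting error only) in WT and 4800 (4760 to 4830) in KO at 6 months. It was 9250 and 2710 at 1 month and 5940 and 4620 at 3 months, lower in KO at each age. The clusters classed as Müller, which include wells of other gates, also held WT and KO wells in different proportions, most clearly in the 1-month libraries. There, 1 of them held 68 WT and 25 KO wells, and the other 14 WT and 407 KO. In the 3-month libraries they held 8 WT with 84 KO, and 14 WT with 336 KO. The KO Müller gate itself had only 112 wells in the 1-month library and 165 in the 3-month library. The 6-month libraries gave 16 WT with 60 KO, and 11 WT with 76 KO. The part of these clusters in the Glul values was not tested. In the rod gate Glul was at 368 CPM (356 to 380) in WT against 837 (828 to 847) in KO, and had reads in 136 of 181 and 249 of 256 wells. At 1 and 3 months it was at 128 and 258 CPM in WT rods and 976 and 798 in KO rods, so its WT and KO rod values did not overlap over the 3 ages.

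Slc1a3, the glial glutamate transporter gene, was at 1640 CPM in WT and 1040 in KO Müller cells at 6 months, and lower in KO at 1 month (1870 and 694) and 3 months (1870 and 1220). In rods it was at 80.2 and 121 CPM. Gpr37 was at 692 and 518 CPM in Müller cells and at 17 and 46.8 in rods. The transcription factor genes were slightly higher in KO Müller cells, Sox2 at 147 and 199 CPM and Sox9 at 50.2 and 75.6, with WT reads in 5 of 16 wells for each. At 3 months Sox9 was lower in KO (280 and 210 CPM).

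The gliosis genes Vim and Cp and the stress gene Nupr1 were higher in KO rods at all 3 ages. Vim was at 21.4 CPM (18.6 to 24.5) in WT and 110 (106 to 113) in KO rods at 6 months, with reads in 12 of 181 and 75 of 256 wells. At 1 and 3 months it was at 5.62 and 76.4 CPM in WT rods and at 175 and 210 in KO rods, so all 3 KO values lay above all 3 WT values. In Müller cells Vim was at 338 and 460 CPM. Cp was at 24.9 and 83.9 CPM in rods and 1020 and 857 in Müller cells. Cebpd was low, at 3.70 and 8.66 CPM in rods, and had reads in 0 of 16 WT and 11 of 84 KO Müller wells. Hspb1 had next to no rod RNA, with 1 WT and 12 KO reads at 6 months.

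Nupr1 was at 49.2 CPM (44.9 to 53.7) in WT and 102 (98.8 to 105) in KO rods at 6 months, with reads in 15 of 181 and 49 of 256 wells. At 1 and 3 months its rod values were 3.26 and 21.5 CPM in WT and 245 and 223 in KO. In cones it was at 0.38 CPM (1 read) in WT and 109 in KO at 6 months, and at 1.20 and 202 CPM at 1 month and 1.72 and 184 at 3 months. In Müller cells, where its level was highest, it was at 507 CPM in WT and 609 in KO at 6 months at 214 and 359 at 1 month and at 198 and 1000 at 3 months. All of its KO values in rods and cones lay above all WT values there.

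Cone genes were level or lower in KO in the cone gate at 6 months. Pde6h was at 9910 CPM in WT and 10200 in KO cones at 6 months, Cnga3 at 108 and 73.5, Kcne2 at 421 and 204, and Rxrg at 48.7 and 34.8. Kcne2 was lower in KO cones also at 1 month (932 and 227) and 3 months (749 and 471). Outside cones, Pde6h was higher in KO in the Müller gate, at 39.2 CPM (30.2 to 50.1) in WT and 496 (484 to 508) in KO, with reads in 7 of 16 and 68 of 84 wells. The cone and bipolar markers that were higher in the KO Müller gate are given with Glul, and Pde6h is itself one of the cone markers.

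The bipolar genes named here, and Gad1 of amacrine cells, were lower in KO in their own gate at 6 months. In bipolar cells Lrtm1 was at 1030 CPM in WT and 865 in KO, Isl1 at 821 and 562, Car8 at 566 and 327, and Kcnma1 at 644 and 397. In amacrine cells Gad1 was at 357 and 250 CPM, and Stx1a had only 5 WT and 93 KO reads. The whole lists moved likewise: in the bipolar gate, bipolar markers summed to 12400 CPM in WT and 9300 in KO and Müller markers to 2380 and 7660. In the amacrine gate, amacrine markers summed to 4510 and 3130 CPM, Müller markers to 4720 and 7920, cone markers to 1870 and 4370 and bipolar markers to 355 and 1490. Their part in these gene values was not tested. Lrtm1, Isl1, Car8, Gad1 and Stx1a are themselves among the markers that placed the wells. The same genes in the rod gate were at 69 and 85 CPM for Lrtm1, 16.4 and 67.1 for Isl1 and 3.6 and 40.9 for Car8.

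Among rod-expressed genes, Esrrb was at 135 CPM in WT and 112 in KO rods, Cacnb2 at 180 and 175, and Dnmt3a at 110 and 61.6, all level or lower at 6 months. At 3 months Esrrb was at 69.7 and 167 CPM and Dnmt3a at 62.9 and 91, higher in KO, so neither had 1 direction over the ages. Some genes of widened promoters had next to no RNA. Aqp3 had 0 reads in all 5 gates at all 3 ages, Wnt5b was at 0 in the rod gate at all ages, and Onecut1 was at 0 in all 5 gates at 6 months.

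Many of the genes with the most extreme ratios at 6 months rested on few wells and did not show the same direction at both other ages. Of the 25 with the highest ratio, 5 in each gate, 14 were higher in KO also at 1 and 3 months. Over all genes tested, 45.7% to 75.3% were higher in KO at 1 of these ages, by gate, and the share at both was not counted. Of the 25 with the lowest ratio, 0 were lower at both. Some of these, such as Baalc and Plcd4, had 0 reads in both libraries at another age and could show no direction there. Where a library had 0 reads, the bound against a floor of 3 reads in that library is given in place of the ratio. In rods Gna14 and Lad1 were at least 91.2-fold and 68.6-fold higher in KO, and the log2 ratio was 4.32 for Pam, 4.26 for Vstm2a and 4.25 for Dgkb. These 5 were seen in 8 to 26 of 256 KO wells. S100a4, Baalc and Col8a1 were at least 153-fold, 102-fold and 90.7-fold lower in KO, and the log2 ratio was -3.37 for Cacna1c and -3.34 for Lpp, each with 88.3% or more of its WT reads in 1 well.

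In cones the log2 ratio was 6.41 for Rit2 and 6.31 for Nupr1, and Ddit4l, Cend1 and Rab3c were at least 49.5-fold, 47.3-fold and 37.5-fold higher. Nupr1 had reads in 1 of 29 WT and 23 of 64 KO cone wells. Rit2, a Ras-like GTPase gene, had them in 1 and 22, but was lower in KO cones at 1 month (119 and 48.9 CPM) and 3 months (152 and 99.9). The lowest in cones were Pde1c (-6.79), Mum1l1 (-5.89) and Smim1 (-5.60), with Plcd4 and Clstn2 at least 168-fold and 118-fold lower.

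In bipolar cells S100a6, Smim1, Myom1 and Arap2 were at least 84.3-fold, 57.1-fold, 57-fold and 52.5-fold higher, and the log2 ratio of Trpm3 was 5.23. Smim1 was lower in KO bipolar cells at 3 months (-3.37) and higher in KO cones then. Gpnmb, a membrane glycoprotein gene, had reads in 8 of 56 WT and 0 of 111 KO wells and was at least 295-fold lower, and Rarb (-5.45), Rnf217 (-4.71), Hecw2 (-4.60) and Stxbp6 (-4.14) followed. Of the 25 lowest, Gpnmb had the least concentrated WT reads, with 36.6% in 1 well.

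In Müller cells Isl1, Ccser2, Nebl, Mras and Akap12 had 0 WT reads in 16 wells and were at least 50-fold, 45.7-fold, 40.4-fold, 37.6-fold and 37.1-fold higher in KO. Isl1 is a bipolar marker, and the sum of bipolar markers in this gate is given with Glul. Ptprm and Cmtm8 were at least 263-fold and 146-fold lower, followed by Cd24a (-6.35), Ghr (-5.28) and Gng2 (-4.85). At 3 months all 5 had 0 reads in 11 WT wells and some reads in KO. They were then at least 10.9-fold (Cd24a), 7.27-fold (Ghr) and 3.58-fold (Ptprm) higher in KO, but only 1.25-fold for Cmtm8 and Gng2. In amacrine cells Cd9, Fam49a, Cald1, Ddit4l and Syt10 were at least 61.7-fold, 47.6-fold, 47.4-fold, 39.9-fold and 38.9-fold higher, though no KO read of Syt10 was seen at 3 months, at least 103-fold lower. Entpd2, Slc27a3 and Dlec1 were at least 226-fold, 204-fold and 112-fold lower, and Tm6sf1 (-5.53) and Gng12 (-4.92) were also among the lowest. Cald1, Syt10, Gna14 and Gng2 changed sign when wells were classed by clusters.

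Over the 3 ages, no gene of a widened promoter passed the test in rods. The fit of genotype over ages with edgeR's quasi-likelihood test (age as factor, Benjamini-Hochberg adjustment over all genes, 3 libraries per genotype, rod gate) called 5 of 12584 genes (0.0397%), and 0 of 527 genes of widened promoters. On simulated data at the estimated dispersion of 0.893, this fit recovered 0 of 200 genes changed 8-fold. The 0 calls therefore cannot show that a difference is absent. At an unadjusted p under 0.05, 95 of the 527 (18.0%) were counted, 94 of them higher in KO, against 7.24% of all genes. DESeq2 called 84 of the 527 and 545 genes in all, and limma-voom 1 and 8. Labels do not say that the libraries came from separate animals or litters, and the library that goes against its label is among them. Without the 1-month libraries, edgeR called 0 of the genes of widened promoters and 2 in all.

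The 5 genes with the smallest p in rods were Glul (log2 ratio 1.63, edgeR adjusted p = 0.128, range over the alternative fits 0.000359 to 0.516), Cyp2d22 (6.60, 0.231), Pnmal2 (4.49, 0.231), Vim (2.60, 0.231) and Nupr1 (3.24, 0.231). Each was higher in KO at 3 of 3 ages. Over the alternative fits the adjusted p ran up to 1 for the last 4, from 3.87e-07 for Cyp2d22, 2.01e-05 for Pnmal2, 0.00134 for Vim and 0.000371 for Nupr1, so all 5 calls depend on the fit. Pnmal2, a gene of the paraneoplastic antigen family, was at 0.507, 1.43 and 54.0 CPM in WT and at 55.1, 75.6 and 143 in KO at 1, 3 and 6 months. Cyp2d22, a cytochrome P450 gene, was at 0.338, 0 and 0.80 CPM in WT and at 46.4, 77.3 and 19.8 in KO.

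In the Müller gate the same fit called 2 of 12688 genes (0.0158%) and 0 of 585 genes of widened promoters. At its estimated dispersion of 1.55 it recovered 0 of 200 simulated 8-fold changes, so these 0 calls likewise cannot show absence. At an unadjusted p under 0.05, 44 of the 585 (7.52%) were counted, against 5.15% of all genes. DESeq2 called 36 of them and 441 in all, and limma-voom 0 and 3. The smallest p were those of Pde6h (log2 ratio 3.12), Glul (-1.03), Akap12 (11.93), Lhx4 (10.62) and Zfp804a (10.63), each with an edgeR adjusted p = 0.956. Over the alternative fits it ran up to 1, from 0.00451, 0.0375, 0.000229, 0.00327 and 0.00449 in that order. Akap12, an anchoring protein gene of protein kinase A, Lhx4, a LIM homeobox gene, and Zfp804a had 0 reads in every WT Müller library, so their fitted ratios depend on the prior count. Akap12 was at 53.5, 29.5 and 68.2 CPM in KO. The median fitted log2 ratio was 1.13 in these 585 genes and 1.14 over all genes, against 2.10 and 0.152 in the rod gate.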

How the data were processed

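Retinal RNA libraries and ATAC peak lists were used as deposited. The RNA tables hold counts of reads per gene ID and well, made by the authors with CASAVA, TopHat2 and HTSeq on mm10 or GRCm38, per the submitters' processing notes; all values were whole, and molecular identifiers are not given in the sources used here. The ATAC lists hold peak positions, annotated genes, distance and peak type; Cell Ranger ATAC 1.1.0 on mm10 is named in the submitters' processing notes. Starts were taken as counted from 0, and printed positions are from 1.

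Peaks were matched by an overlap of at least 1 base. The members and lists were chosen with earlier results of these data known. Start sites and promoter letters came from the RefSeq promoter table (GRCm38.p6), within 2000 bases; a window holds 250 bases before and 50 from the start. The 11 motifs were searched on both strands, and overlaps between them were allowed. The comparison with other promoter peaks under 500 bases in WT was added after seeing the data.

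Of 3747 wells, 3746 had at least 300 genes and no more than 30% of reads from mitochondrial genes. No doublet caller was run. Each well was put in the class with the highest mean marker score. Reads were summed per library and gate and scaled to CPM. The log2 ratio used CPM plus 1 and genes with at least 50 reads. Intervals are exact Poisson at 95%, and a count of 0 was set to 3 reads for fold bounds; both cover counting error only, since reads are not molecules. The fits over ages used edgeR 4.0.16 (TMM, filterByExpr, false discovery rate 0.05) in R 4.3.3, with DESeq2 1.42.0 and limma 3.58.1 as alternatives. On simulated data with 200 genes changed 8-fold, the rod fit recovered 99.5% at a dispersion of 0.05 and 0% at the estimated 0.893, and the Müller fit 98% and 0% at 1.55. The matching was checked against a direct count. Where labels name no separate animals, p-values measure the spread between libraries.

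Genes named are the 10 largest by ratio and by gain, 5 on each side of the threshold, those on a list, the 5 highest and lowest per gate, and the 5 smallest p per fit; 1 gene that the rule names is not reported here.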

Additional observations from a re-analysis of the deposited data

Results flagged for a closer look

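Among 93 genes compared, 8 moved in opposite directions in 2 gates at each of the 3 ages, with at least 50 reads at every age. The differences between gates were not tested. How often other genes meet the same rule was not counted, so these 8 are not read as a feature of the genes of widened promoters. Values below are the difference of the mean log2 ratios over the ages.

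Glul, Slc1a3, Cp and Flt1 were lower in KO in the Müller gate and higher in the bipolar gate, and Gpm6a was lower in the Müller and amacrine gates and higher in the cone and rod gates. The difference was 3.40 for Glul and 4.36 for Slc1a3 between the bipolar and Müller gates, and both were higher in KO rods as well. It was 3.75 for Cp and 5.37 for Flt1 between the same gates, and 4.82 for Gpm6a between the cone and Müller gates. Müller markers as a whole summed to 2380 CPM in WT and 7660 in KO in the bipolar gate at 6 months, and to 68400 and 47900 in the Müller gate, and their part was not tested. Flt1 in the Müller gate differed by only -0.02 on the log2 scale at 6 months.

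Kcne2 was lower in KO cones, and Lrtm1 and Cacnb2 in KO bipolar cells, each with another gate higher. The difference was 5.46 for Kcne2 between the Müller and cone gates, 4.24 for Lrtm1 between the amacrine and bipolar gates, and 4.22 for Cacnb2 between the Müller and bipolar gates.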

How the results depend on the processing

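The number of widened promoter peaks was 1701 at a ratio of 1.5, 430 at 3 and 543 with a gain of 1000 bases in place of the ratio (370 of them shared with the 920); the other 6 settings gave 815 to 1322. The mirror set counted 47 at 1.5 and 9 at 3.

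The share of genes at least 2-fold higher in KO was in rods 30.5% with a pseudocount of 5 CPM (all genes 14.1%) and 32.2% with wells thinned to 5000 reads (all genes 11.2%). In cones it was 36.3% at 500 reads, 32.3% thinned and 31.3% at a mean of 20 CPM (all genes 22%, 13.2% and 19.8%). Other settings raised the cone median from 1.54 to 2.619 by clusters (all genes 0.454), 2.332 with a gate margin of 0.2 (0.417) and 2.33 without the 5% of wells with most reads (0.42). In bipolar cells it was 24.9%, 11.3% and 15.8% under the same settings (all genes 18.7%, 11.2% and 14.7%), with medians of -0.158, -0.225 and -0.465, and a median of -0.086 at a mean of 5 CPM. In Müller cells it was 30.7%, 22.1% and 25% (all genes 31.2%, 25.4% and 25.2%), with medians of -0.089 thinned and -0.087 at a mean of 20 CPM, and at 1 month 28.1% with a median of -0.639. In amacrine cells it was 27.3%, 21.5% and 21.4% (all genes 25.4%, 18.2% and 21.3%), with medians of -0.257 at a mean of 20 CPM and -0.735 at 1 month. By clusters the Müller share was 55.4% (all genes 47.2%). Fewer genes were tested under thinning (31 to 124). The minimums on mean CPM, the minimum of 100 bases and the gain were chosen after seeing the data. The cause of the other shifts was not tested.

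Of 1355 values for named genes under alternatives, 8 changed sign: by clusters Cald1 (-0.078), Gna14 (-0.534), Gng2 (2.608), Syt10 (-4.715) and Thy1 in Müller cells (1.341); without the 5% of wells with most reads Thy1 (0.356) and Sox2 in bipolar cells (-0.304); as a mean over wells Rxrg in bipolar cells (0.194).

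In the rod fit, genes called were 545 with DESeq2, 8 with limma-voom, 37 with no filter beyond 10 reads, 2 with DESeq2 size factors, 0 with genotype alone, 2, 18 and 12 without 1, 3 and 6 months, and 12 by clusters. Genes of widened promoters called were 84, 1, 7, 0, 0, 0, 2, 2 and 1. In the Müller fit, genes called were 441 with DESeq2, 4 with DESeq2 size factors, 0 with genotype alone, 7 and 1 without 1 and 6 months, and 0 by clusters; genes of widened promoters called were 36 with DESeq2, 1 with DESeq2 size factors and 1 without 3 months. ATAC depth is unknown and limits every length. The fits pair WT and KO by age, and genotype alone is the fit without that pairing.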
